A study of Mus musculus with 12 samples.

Results

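The TRAF, cIAP and A20 signalling adaptors described here are 10 mouse genes chosen by symbol from the 47643 genes of the deposited table: Traf1, Traf2, Traf3, Traf5, Birc2, Birc3, Tnfaip3, Tnip1, Map3k14 and Ripk1. All 10 passed the filter on low values (1 FPKM or more in at least 3 libraries), as did 13082 genes in all. FPKM counts sequenced fragments relative to transcript length and library depth, so levels can be compared between genes. The 12 RNA libraries came from C57BL/6 spleen cells that the labels call naive CD4 T cells, activated for 3 days on plates coated with anti-CD3 and anti-CD28 at 2 μg/ml each. The 4 groups held 3 libraries each. Cells without TNF receptor 2 (Tnfr2-/-, gene Tnfrsf1b) received TNF at 20 ng/ml with TGF-β at 2 ng/ml. Wild type (WT) cells received the same TNF+TGF-β, or IL-6 at 20 ng/ml with TGF-β at 2 ng/ml, or no added cytokine (Th0). Mouse age and the design of the knockout allele were not given in the sources used here, and neither a Tnfr2-/- Th0 group nor a group with TGF-β alone was analysed. TNF and IL-6 were therefore each tested together with TGF-β, and the genotypes were compared only under TNF+TGF-β. The labels do not say whether the libraries of a group came from separate mice or cultures, so p-values measure the spread between these libraries, which may be technical.

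TNF binds TNF receptor 1, which is widely expressed and carries a death domain, and TNF receptor 2, which is prominent on activated and regulatory T cells and has none. Both receptors lead to TRAF2, which brings the ubiquitin ligases cIAP1 (Birc2) and cIAP2 (Birc3). At TNF receptor 1 these attach ubiquitin chains to the kinase RIPK1 (Ripk1), from which the IKK kinases are switched on. In resting cells TRAF3, TRAF2 and the cIAPs hold down NIK (Map3k14), the kinase that starts the noncanonical NF-κB pathway, by having it degraded. A20 (Tnfaip3) and its partner ABIN-1 (Tnip1) are brakes on the canonical pathway, and both genes are textbook NF-κB targets.

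The promoters of Tnfaip3 and Tnip1, the NF-κB targets that changed together here, are shown beside that of Traf5, which was called in the other direction between the genotypes. They were picked by these changes in level. Each is the 250 bases before a RefSeq start site in GRCm38.p6, the outermost for Tnfaip3, 5′ to 3′ on the minus strand, on which the genes lie, at chr10:19015411-19015660 for Tnfaip3, chr11:54962941-54963190 for Tnip1 and chr1:192092600-192092849 for Traf5. Capitals mark matches to the NF-κB consensus on either strand.
Tnfaip3: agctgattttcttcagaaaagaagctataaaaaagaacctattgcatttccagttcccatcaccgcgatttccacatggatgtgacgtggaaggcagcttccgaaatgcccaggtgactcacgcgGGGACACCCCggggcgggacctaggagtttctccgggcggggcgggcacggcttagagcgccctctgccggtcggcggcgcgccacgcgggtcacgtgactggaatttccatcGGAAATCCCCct
Tnip1: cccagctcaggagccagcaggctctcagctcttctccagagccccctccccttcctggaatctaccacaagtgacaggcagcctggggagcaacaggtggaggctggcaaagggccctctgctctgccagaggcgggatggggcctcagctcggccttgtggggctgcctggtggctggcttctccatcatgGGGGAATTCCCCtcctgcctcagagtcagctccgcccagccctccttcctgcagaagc
Traf5: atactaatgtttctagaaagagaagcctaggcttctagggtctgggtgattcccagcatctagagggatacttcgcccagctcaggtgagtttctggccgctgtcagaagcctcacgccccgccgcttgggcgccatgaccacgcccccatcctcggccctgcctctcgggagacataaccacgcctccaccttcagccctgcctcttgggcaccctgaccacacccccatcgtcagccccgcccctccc
The consensus was searched on both strands of windows that held these 250 bases and the 50 after the start, and 8.46% of 32851 windows of all genes held it. All 10 members had a window. In Tnfaip3 the matches began 125 and 12 bases before the start, and in Tnip1 overlapping matches began 58, 57 and 56 bases before it. A second Tnfaip3 start has a window of its own (chr10:19011914-19012213), which held no match. Traf3 held 1 match, 10 bases before its start, so 3 of the 13 windows of members held the consensus, each of a different member. The Traf5 window held no match. A match is a description of the sequence and not a measured binding site.

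The libraries were not pure in CD4 T cell markers. Cd8a and Cd8b1 were both above Cd4 in 11 of 12 libraries, and Cd4 itself was at 10.3 to 17.6 FPKM in Tnfr2-/- cells, 42.3 to 79.6 in WT TNF+TGF-β, 4.07 to 25.2 in IL-6+TGF-β and 18.9 to 62.4 in Th0. The summed level of 8 B cell markers was 1960 to 4307 FPKM in Tnfr2-/- cells, against 263 to 340 in WT TNF+TGF-β, 422 to 938 in IL-6+TGF-β and 769 to 1222 in Th0. Summed levels of 8 myeloid markers were 275 to 1590, 108 to 201, 42.9 to 95.6 and 152 to 219 FPKM in that order of groups, and none of these 16 markers was at 0 in any library. Summed levels of 6 general T cell markers were closer, at 1477 to 2371 FPKM in Tnfr2-/- cells, 2357 to 2495 in WT TNF+TGF-β, 2045 to 2218 in IL-6+TGF-β and 2308 to 2582 in Th0. Summed levels of Cd8a and Cd8b1 were 29.5 to 78.9 FPKM in Tnfr2-/- cells, 307 to 358 in WT TNF+TGF-β, 256 to 343 in IL-6+TGF-β and 115 to 180 in Th0. Summed levels of 5 NK cell markers, some of which CD8 T cells also express, were 65.5 to 226 FPKM in Tnfr2-/- cells, 894 to 1037 in WT TNF+TGF-β, 756 to 1065 in IL-6+TGF-β and 1133 to 1497 in Th0. Most of these sums was 1 gene, Nkg7, which averaged 159, 946, 841 and 1259 FPKM in that order of groups. Klrb1c, at low levels, went the other way between the genotypes, averaging 0.247 FPKM in Tnfr2-/- cells and 0.12 in WT TNF+TGF-β. Ncr1 was at 0 in 5 of 12 libraries. In bulk RNA, fewer cells of a type and less RNA per cell cannot be told apart. Tnfrsf1b, the targeted gene, was at 4.87, 3.71 and 3.19 FPKM in the Tnfr2-/- libraries, against 70.8 to 108 FPKM in WT TNF+TGF-β libraries. The estimated number of fragments per library was 16800000 to 24000000, and 3 fragments on a 1-kilobase transcript would give 0.125 to 0.179 FPKM, far below every member value.

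The members differed in how much they varied. Over the 12 libraries the highest value was 1.39 times the lowest for Birc3 and 1.42 times for Traf2. It was 6.10 times the lowest for Tnip1 and 11.1 times for Tnfaip3. By median level, Traf1 (124 FPKM), Birc3 (56.5 FPKM) and Traf2 (42.8 FPKM) were the most abundant members, and Traf3 (14.9 FPKM) and Map3k14 (9.04 FPKM) the least.

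**Figure D1:**
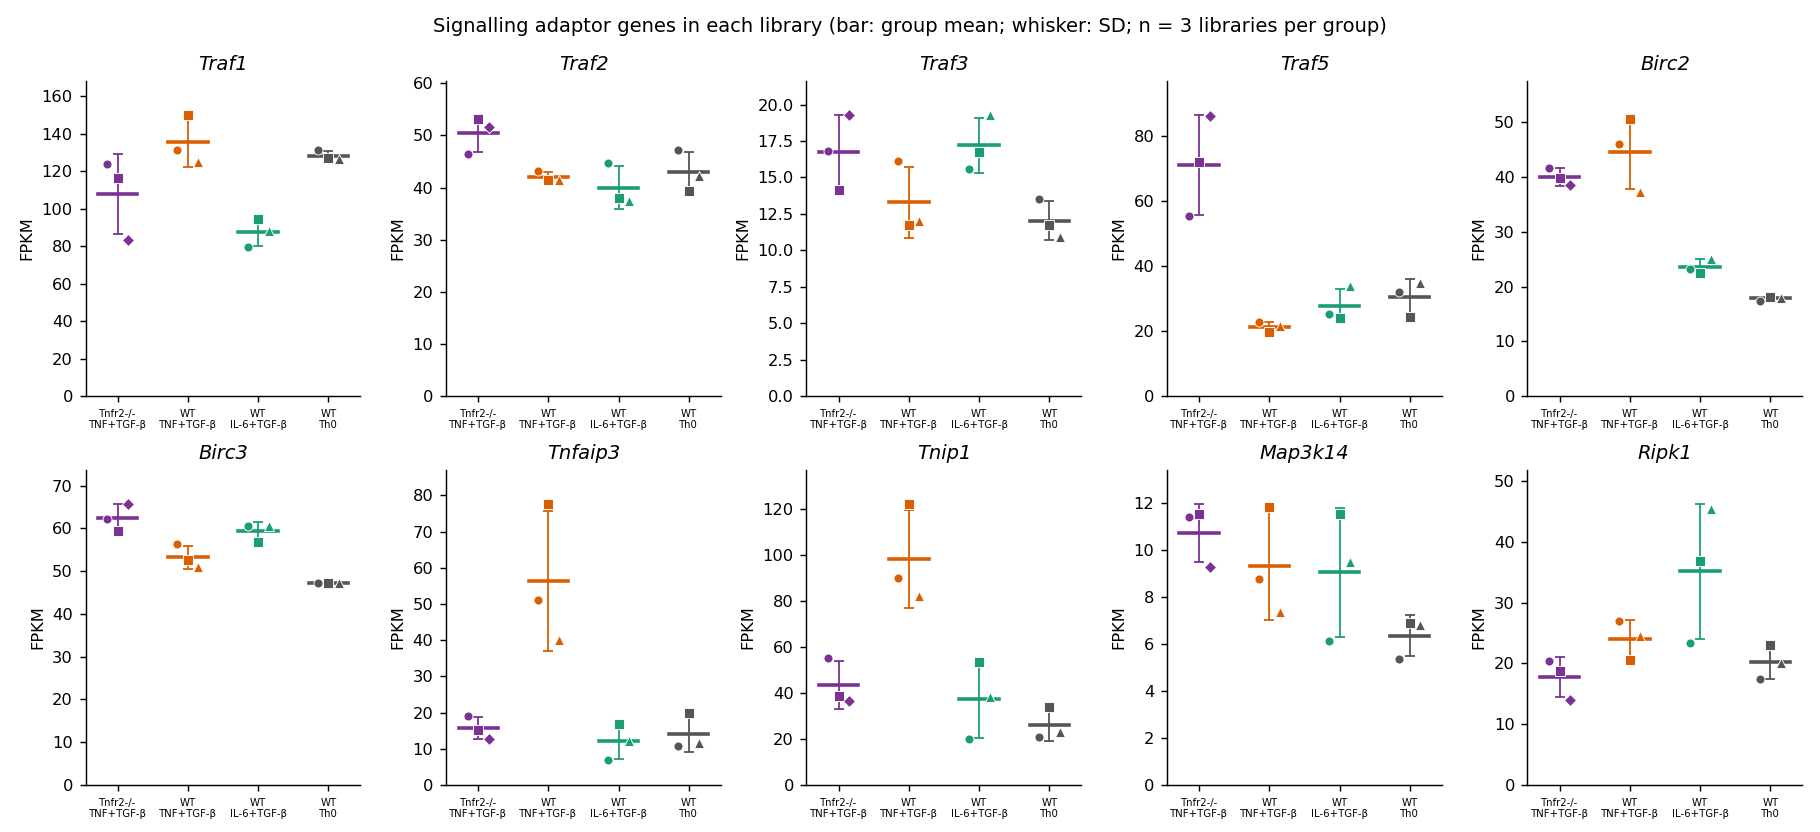
FPKM of each of the 10 genes (y axis, linear from 0) in each library (points, with the shape giving the library number) by group (x axis), with the group mean (bar) and SD (whisker), n = 3 libraries per group. Tnfaip3 and Tnip1 are highest in WT TNF+TGF-β, Traf5 is highest in Tnfr2-/- cells, and Birc2 is high in both TNF+TGF-β groups.

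The brakes of the pathway showed the largest differences with cytokine. Tnfaip3 encodes A20, which edits and removes ubiquitin chains at the receptor complex. It was at 19.0, 15.3 and 12.8 FPKM in the Tnfr2-/- libraries, 51.0, 77.7 and 40.1 in WT TNF+TGF-β, 6.98, 16.9 and 12.2 in IL-6+TGF-β, and 10.7, 20.0 and 11.5 in Th0. The 3 WT TNF+TGF-β libraries were above all 9 others, and the other 3 groups overlapped. With TNF+TGF-β, Tnfaip3 was 1.92 ± 0.33 higher than in Th0 (log2 difference ± SE, n = 3 each, limma adjusted p = 0.00095) and 2.16 ± 0.33 higher than under IL-6+TGF-β (adjusted p = 0.00076). In Tnfr2-/- cells it was lower than in WT, at -1.74 ± 0.33 (adjusted p = 0.0016). All differences are on the log2(FPKM + 1) scale, which understates changes of low genes.

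Tnip1 encodes ABIN-1, a ubiquitin-binding adaptor that brings A20 to its targets. It was at 55.2, 38.7 and 36.3 FPKM in the Tnfr2-/- libraries, 89.7, 122 and 82.1 in WT TNF+TGF-β, 20.0, 53.4 and 38.0 in IL-6+TGF-β, and 21.01, 33.7 and 23.2 in Th0. As for Tnfaip3, the WT TNF+TGF-β libraries stood above all others. Tnip1 was 1.88 ± 0.31 higher under TNF+TGF-β than under Th0 conditions (limma adjusted p = 0.00081), 1.46 ± 0.31 higher than under IL-6+TGF-β (adjusted p = 0.0079) and lower in Tnfr2-/- cells than in WT, at -1.16 ± 0.31 (adjusted p = 0.0128). Without replicate 2 of WT TNF+TGF-β, the highest library, the genotype difference was -0.99 and was not called (limma adjusted p = 0.0512). With all libraries, IL-6+TGF-β and Th0 were not told apart for either gene, with intervals of -0.95 to 0.48 for Tnfaip3 and -0.26 to 1.11 for Tnip1. Without replicate 1 of IL-6+TGF-β, the group's lowest library in Tnip1 (20.0 FPKM), Tnip1 was called higher under IL-6+TGF-β than under Th0 conditions.

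Both brakes ranked libraries much as Cd4 did. In 4 of 4 groups the library highest in Cd4 was also highest in Tnfaip3 and in Tnip1. In each WT group that library was replicate 2, and in Tnfr2-/- cells replicate 1. Whether same-numbered libraries share a source is not known, so the WT groups may not be separate agreements. In 3 of 4 groups Cd4 and Tnfaip3 put the libraries in the same order. Cd4 itself was lower in Tnfr2-/- cells than in WT, at -2.07 ± 0.55 (limma adjusted p = 0.0117) and 2.18 ± 0.55 higher under TNF+TGF-β than under IL-6+TGF-β (adjusted p = 0.0199). Its difference between TNF+TGF-β and Th0 was 0.83 ± 0.55 and was not called (limma adjusted p = 0.270). Zbtb7b, the other CD4 T cell marker listed, was not called in any of these comparisons. It was at 0.04 between Tnfr2-/- and WT (limma adjusted p = 0.932), averaging 4.48 and 4.29 FPKM. For TNF+TGF-β it was at 0.68 over IL-6+TGF-β and -0.24 over Th0 (limma adjusted p = 0.134 and 0.520). Divided by Cd4 within each library, a scale added after the data had been seen, Tnfaip3 was at 1.08, 1.39 and 1.24 in the Tnfr2-/- libraries, 1.20, 0.977 and 0.761 in WT TNF+TGF-β, 1.71, 0.672 and 0.864 in IL-6+TGF-β, and 0.569, 0.320 and 0.452 in Th0. On that scale the log2 difference from Th0 under TNF+TGF-β was 1.09 for Tnfaip3 and 1.05 for Tnip1, and the 2 groups did not overlap (exact two-sided permutation p = 0.1 each, the smallest 3 against 3 allows). The other 2 differences did not keep their direction, and the groups overlapped in all but Tnip1 between the genotypes. Tnfaip3 was at -0.02 between TNF+TGF-β and IL-6+TGF-β (exact permutation p = 1) and 0.33 between Tnfr2-/- and WT (exact permutation p = 0.2). Tnip1 was at -0.72 (exact permutation p = 0.2) and 0.91 (exact permutation p = 0.1) in those comparisons. Divided by the sum of the 6 T cell markers, both genes kept their direction in all 3 comparisons, with Tnfaip3 at 1.95, 1.99 and -1.40 and Tnip1 at 1.91, 1.29 and -0.82. Dendritic cell markers were at low levels and 5 of them summed to 2.78 to 5.01 FPKM in Tnfr2-/- cells, 7.13 to 11.6 in WT TNF+TGF-β, 1.46 to 2.64 in IL-6+TGF-β and 2.54 to 3.28 in Th0, with Siglech at 0 in 5 of 12 libraries. Of the 2 that passed the filter, Itgax and Zbtb46, both were called higher for TNF+TGF-β over Th0 (1.57 and 1.16, limma adjusted p = 0.0031 and 0.0023). Both were called lower for Tnfr2-/- over WT (-1.13 and -1.65, limma adjusted p = 0.0160 and 0.00017). Itgax passed the filter only through WT TNF+TGF-β (1.51 to 3.63 FPKM), so its calls are no separate support. Flt3, which did not pass, went the other way between the genotypes, averaging 1.57 FPKM in Tnfr2-/- cells and 0.213 in WT TNF+TGF-β. Xcr1 did not pass either and was highest under IL-6+TGF-β, at a mean of 0.597 FPKM. The part of Cd4-expressing or dendritic cells in these results was not tested.

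**Figure D2:**
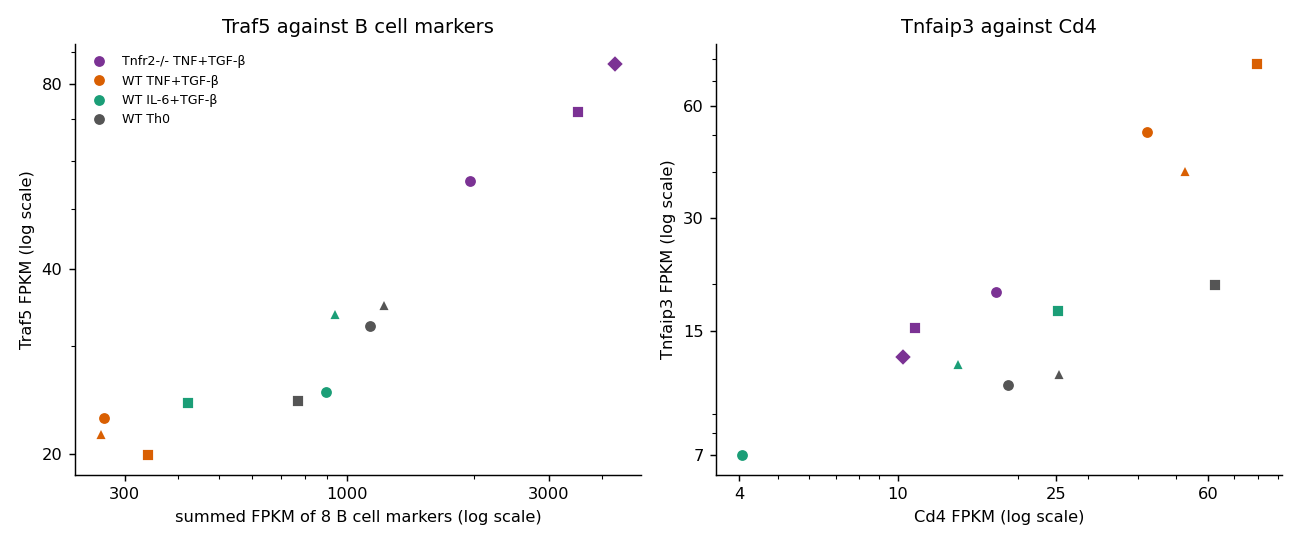
Left, Traf5 FPKM against the summed FPKM of 8 B cell markers; right, Tnfaip3 FPKM against Cd4 FPKM, each point 1 library (shape gives its number) and both axes logarithmic. The Tnfr2-/- libraries lie highest on both axes at left, and the WT TNF+TGF-β libraries lie highest in Tnfaip3 at right, with Cd4 at 42.3 to 79.6 FPKM.

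Among the adaptors that carry the signal, Traf5 differed most. TRAF5 is a close relative of TRAF2 that binds several TNF family receptors and is known in T cells for limiting IL-6 signalling. Traf5 was at 55.5, 72.0 and 86.3 FPKM in the Tnfr2-/- libraries, 22.9, 19.9 and 21.6 in WT TNF+TGF-β, 25.2, 24.2 and 33.8 in IL-6+TGF-β, and 32.2, 24.4 and 34.9 in Th0. The Tnfr2-/- libraries were above all 9 WT libraries, and IL-6+TGF-β and Th0 overlapped. Traf5 was 1.67 ± 0.19 higher in Tnfr2-/- cells than in WT under TNF+TGF-β (n = 3 each, limma adjusted p = 5.31e-05). With TNF+TGF-β all 3 WT libraries were below all 3 Th0 libraries, at -0.48 ± 0.19, a difference that was not called (limma adjusted p = 0.0758) but was called without replicate 2 of Th0, at -0.62 (adjusted p = 0.0365). B cell markers moved the same way: 8 of 8 were called higher in Tnfr2-/- cells than in WT, where 19.9% of all genes were, and 8 of 8 lower under TNF+TGF-β than under Th0 conditions, where 13% of all genes were. In 3 of 4 groups Traf5 and the summed B cell markers put the libraries in the same order. The exception was WT TNF+TGF-β, where replicate 2 was highest in the B cell markers (340 FPKM) and lowest in Traf5 (19.9 FPKM). Myeloid markers were called higher in Tnfr2-/- cells for 6 of 8. Relative to Cd4 the genotype difference of Traf5 was 3.74, and relative to the T cell markers 2.01 (exact permutation p = 0.1 each). The part of B or myeloid cells in the Traf5 difference was not tested.

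Traf1 was the most abundant member. TRAF1 lacks the RING domain of its relatives, binds TRAF2 and is itself induced by NF-κB. Its level was 124, 116 and 83.4 FPKM in the Tnfr2-/- libraries, 131, 150.0 and 125 in WT TNF+TGF-β, 79.6, 94.6 and 88.3 in IL-6+TGF-β, and 131, 127 and 126 in Th0. The IL-6+TGF-β libraries were below all libraries of Th0 and of WT TNF+TGF-β, and the Tnfr2-/- library numbered 4 lay among them. Traf1 was lower under IL-6+TGF-β than under Th0 conditions, at -0.55 ± 0.15 (limma adjusted p = 0.0171) and 0.62 ± 0.15 higher under TNF+TGF-β than under IL-6+TGF-β (adjusted p = 0.0132). The first call was lost without replicate 1 or 3 of Th0 (limma adjusted p = 0.0584 and 0.0509) and when values were rescaled to TPM (0.0751), and the second without replicate 2 of TNF+TGF-β (adjusted p = 0.0626). TNF+TGF-β differed from Th0 by 0.08, with an interval of -0.24 to 0.39. The difference between Tnfr2-/- and WT was -0.34 and was not called (limma adjusted p = 0.0843), though without replicate 1 of Tnfr2-/- it was -0.45 and called (adjusted p = 0.0354). Relative to Cd4, Traf1 turned to 0.80 for IL-6+TGF-β over Th0 and -1.56 for TNF+TGF-β over IL-6+TGF-β (exact permutation p = 0.5 and 0.1), and relative to the T cell markers it was at -0.36 and 0.45.

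Traf2 and Traf3 were called in none of the 4 comparisons. Traf2, the adaptor that links both receptors to the cIAPs, was at 46.4, 53.1 and 51.7 FPKM in the Tnfr2-/- libraries, 43.2, 41.5 and 41.4 in WT TNF+TGF-β, 44.8, 37.9 and 37.4 in IL-6+TGF-β, and 47.2, 39.4 and 42.3 in Th0. The Tnfr2-/- libraries were above the WT TNF+TGF-β libraries without overlap, at 0.25 ± 0.12, which was not called (limma adjusted p = 0.103), and the WT groups overlapped. Traf3 was at 16.8, 14.1 and 19.3 FPKM in the Tnfr2-/- libraries, 16.1, 11.8 and 12 in WT TNF+TGF-β, 15.6, 16.7 and 19.3 in IL-6+TGF-β, and 13.5, 11.7 and 10.9 in Th0. IL-6+TGF-β stood above Th0 without overlap, at 0.48 ± 0.17, and was not called (limma adjusted p = 0.0552), but was without replicate 1 of IL-6+TGF-β, at 0.54 (adjusted p = 0.0424).

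The 2 cIAP genes lie close together on chromosome 9 (GENCODE M21, GRCm38, both on the minus strand), Birc2 at chr9:7818227-7837064 and Birc3 at chr9:7848699-7873186. Their transcripts share 1.42% and 1.28% of 50-base words, so few reads could be split between them. Birc2, the cIAP1 gene, was at 41.7, 39.8 and 38.5 FPKM in the Tnfr2-/- libraries, 45.9, 50.6 and 37.3 in WT TNF+TGF-β, 23.3, 22.5 and 25.1 in IL-6+TGF-β, and 17.5, 18.1 and 18.0 in Th0. The levels lay in 3 steps: both TNF+TGF-β groups overlapped at the top, IL-6+TGF-β came next and Th0 was lowest, with no overlap between steps. Birc2 was 1.26 ± 0.12 higher under TNF+TGF-β than under Th0 conditions (limma adjusted p = 1.41e-05) and 0.88 ± 0.12 higher than under IL-6+TGF-β (adjusted p = 0.00044). IL-6+TGF-β was 0.39 ± 0.12 above Th0 (limma adjusted p = 0.0418). Tnfr2-/- and WT cells differed by -0.14 under TNF+TGF-β, with an interval of -0.41 to 0.13 (limma adjusted p = 0.382). Unlike the 2 brakes, then, Birc2 was not called between the genotypes, and whether its genotype difference differs from theirs was not tested. Relative to Cd4, Birc2 was at 0.43 for TNF+TGF-β over Th0, at 1.74 for IL-6+TGF-β over Th0 and turned to -1.30 for TNF+TGF-β over IL-6+TGF-β (exact permutation p = 0.6, 0.2 and 0.2). Relative to the T cell markers these were 1.29, 0.58 and 0.71 (exact permutation p = 0.1 each).

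Birc3, the cIAP2 gene, was at 62.2, 59.5 and 65.8 FPKM in the Tnfr2-/- libraries, 56.2, 52.6 and 51.0 in WT TNF+TGF-β, 60.6, 56.8 and 60.5 in IL-6+TGF-β, and 47.3 in each of the 3 Th0 libraries. Every cytokine-treated library was above Th0. The only call was IL-6+TGF-β over Th0, at 0.32 ± 0.10 (limma adjusted p = 0.0296). TNF+TGF-β over Th0 was 0.17 ± 0.10 and Tnfr2-/- over WT 0.23 ± 0.10, neither called (limma adjusted p = 0.201 and 0.0807). The calls of Birc2 and Birc3 between IL-6+TGF-β and Th0 were both lost when any 1 of 5 libraries was left out, that is each Th0 library and replicates 2 and 3 of IL-6+TGF-β, with limma adjusted p of 0.0512 to 0.139. Both were also lost with median-ratio or upper-quartile scaling, a constant variance prior, or only the 2 groups compared (limma adjusted p = 0.0526 to 0.0937).

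The FPKM ratio of Birc3 to Birc2 within a library does not depend on how libraries are scaled. Log2 ratios were taken with 1 added to each FPKM and so depend on it slightly. For TNF+TGF-β over Th0 the difference was -1.097, and -1.105 under TPM. Birc3 was above Birc2 in 12 of 12 libraries. The ratio was 1.49, 1.497 and 1.71 in Tnfr2-/- cells, 1.22, 1.04 and 1.37 in WT TNF+TGF-β, 2.60, 2.52 and 2.41 in IL-6+TGF-β, and 2.71, 2.62 and 2.63 in Th0. The 2 TNF+TGF-β groups thus lay below the other groups, with no overlap between WT TNF+TGF-β and any of the other 3. The difference in log2 ratio was -1.10 for TNF+TGF-β over Th0, -1.03 for TNF+TGF-β over IL-6+TGF-β and 0.37 for Tnfr2-/- over WT (exact two-sided permutation p = 0.1 each, the smallest possible). IL-6+TGF-β and Th0 differed by -0.07 (exact permutation p = 0.2).

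The pair Traf1 over Traf2 had a mean ratio of 2.16 in Tnfr2-/- cells, 3.23 in WT TNF+TGF-β, 2.21 in IL-6+TGF-β and 3.00 in Th0. Tnfaip3 over Tnip1 was likewise highest in WT TNF+TGF-β and then in Th0, at 0.364 in Tnfr2-/- cells, 0.564 in WT TNF+TGF-β, 0.329 in IL-6+TGF-β and 0.533 in Th0. In both pairs, WT TNF+TGF-β did not overlap Tnfr2-/- cells or IL-6+TGF-β, and IL-6+TGF-β did not overlap Th0 (exact permutation p = 0.1 for each). WT TNF+TGF-β and Th0 overlapped in both (exact permutation p = 0.4 for Traf1 over Traf2 and 0.8 for Tnfaip3 over Tnip1). Thus Tnfaip3 and Tnip1 both rose under TNF+TGF-β over Th0 with a log2 ratio that differed by 0.04. Map3k14 over Traf3 overlapped between all groups compared, with exact permutation p of 0.3 to 0.9. With 16 such tests, no ratio difference could reach an adjusted p under 0.05.

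**Figure D3:**
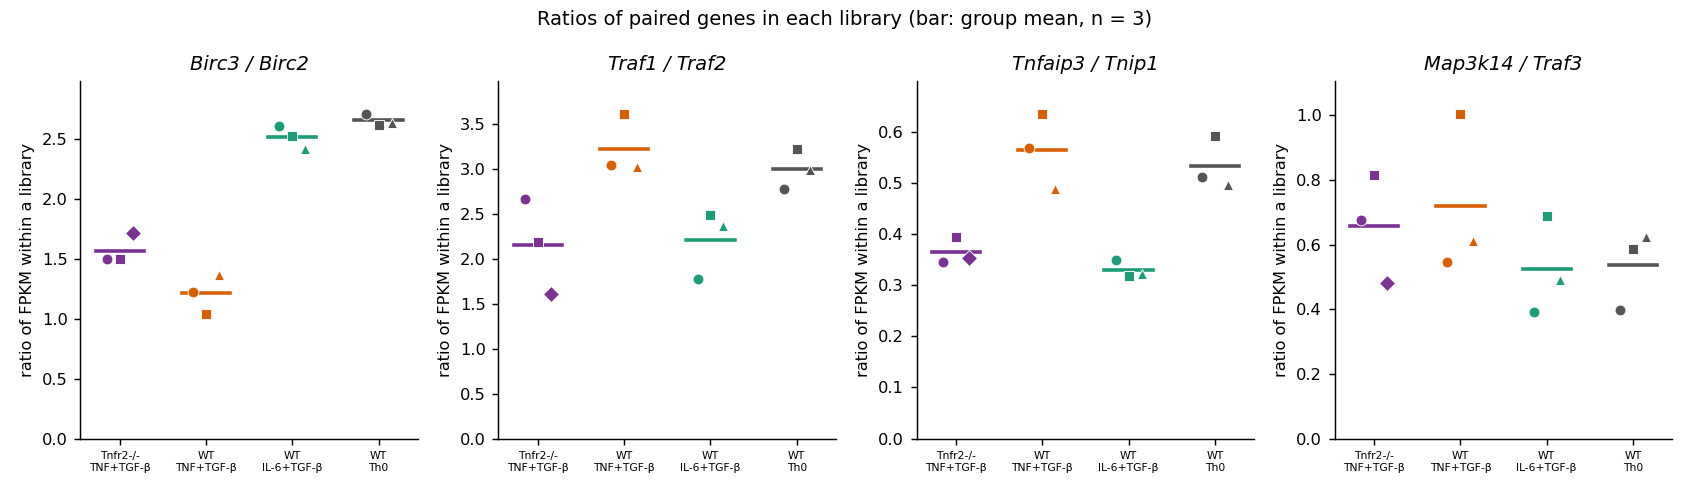
FPKM of the first gene divided by that of the second within each library (y axis, linear from 0) for 4 pairs, by group (x axis), with points for libraries and bars for the group mean, n = 3. Birc3 over Birc2 is lowest in WT TNF+TGF-β, at 1.04 to 1.37, and highest in Th0, at 2.62 to 2.71.

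The kinases differed less. Map3k14, which encodes NIK, was the least abundant member, at 11.4, 11.5 and 9.29 FPKM in the Tnfr2-/- libraries, 8.78, 11.8 and 7.34 in WT TNF+TGF-β, 6.12, 11.5 and 9.48 in IL-6+TGF-β, and 5.36, 6.88 and 6.81 in Th0. WT TNF+TGF-β stood above Th0 without overlap, at 0.47 ± 0.22, and was not called (limma adjusted p = 0.129). With all libraries Map3k14 was called in no comparison. Without replicate 1 of IL-6+TGF-β (6.12 FPKM) it was called higher under IL-6+TGF-β than under Th0 conditions. NIK is known to be controlled mainly through turnover of the protein, which RNA does not measure. Ripk1 was at 20.4, 18.7 and 14.02 FPKM in the Tnfr2-/- libraries, 26.9, 20.6 and 24.5 in WT TNF+TGF-β, 23.3, 36.8 and 45.4 in IL-6+TGF-β, and 17.4, 22.9 and 20.1 in Th0. The IL-6+TGF-β libraries were above Th0, replicate 1 narrowly, at 0.73 ± 0.23 (limma adjusted p = 0.0354). That call was lost without replicate 1 or 3 of Th0 or replicate 2 or 3 of IL-6+TGF-β (limma adjusted p = 0.0900 to 0.149), without a filter on low values (0.0717) and with only the 2 groups compared (0.0834). Without replicate 1 of IL-6+TGF-β, Ripk1 was also called lower under TNF+TGF-β than under IL-6+TGF-β, at -0.75 (limma adjusted p = 0.0252), against -0.49 with all libraries (adjusted p = 0.202). Tnfr2-/- and WT differed by -0.43 without overlap, a difference that was not called (limma adjusted p = 0.160). Ripk1 (chr13:34002363-34037147, plus strand) shares 241 exon bases with Serpinb6a on the opposite strand, and reads of the 2 genes could not be told apart there. Serpinb6a was at 39.9 ± 10.2 FPKM under IL-6+TGF-β and 16.1 ± 2.52 in Th0 (SD, n = 3), a difference of 1.25 ± 0.17 (limma adjusted p = 0.00026). Under TNF+TGF-β Serpinb6a was higher than in Th0 as well, at 44.8 FPKM (1.43, limma adjusted p = 8.15e-05). Ripk1 differed by 0.24 in that comparison and was not called (limma adjusted p = 0.442). Ripk1 also shares 511 exon bases with Gm17084, a pseudogene on the same strand at 1.54 to 6.31 FPKM. Gm17084 differed by -0.07 between IL-6+TGF-β and Th0 (limma adjusted p = 0.913). The part of shared reads in the Ripk1 values was not tested.

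Set against all tested genes, the counts of members called were as follows. Between TNF+TGF-β and Th0, 3 of 10 members were called, all higher, where 31.7% of all genes were called, 18.7% higher and 13% lower. Between IL-6+TGF-β and Th0, 4 of 10 were called, 3 higher and 1 lower, where 23.2% of all genes were called, 14.1% higher and 9.15% lower. Between TNF+TGF-β and IL-6+TGF-β, 4 of 10 were called, all higher, where 12.8% of all genes were called, 7.31% higher and 5.5% lower. Between Tnfr2-/- and WT, 3 of 10 were called, 1 higher and 2 lower, where 37.4% of all genes were called, 19.9% higher and 17.5% lower. The counts for TNF+TGF-β over Th0 and between the genotypes are thus near their backgrounds, and with 10 members all 4 shares are coarse. Groups did not overlap for 6, 5, 6 and 7 members in these comparisons in that order, where 55.1%, 39.2%, 32.1% and 50.8% of all genes did not. The median log2 difference of the members was 0.20, 0.35, 0.06 and 0.03, against 0.07, 0.04, 0.0024 and 0.0020 over all genes. The first pair of comparisons shares the Th0 libraries, and WT TNF+TGF-β libraries enter 3 of the 4 comparisons. The IL-6+TGF-β count against Th0 was 0 without replicate 1 or without replicate 3 of Th0, 2 without replicate 2 of Th0, 1 without replicate 2 or without replicate 3 of IL-6+TGF-β, and 7 without its replicate 1.

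**Figure D4:**
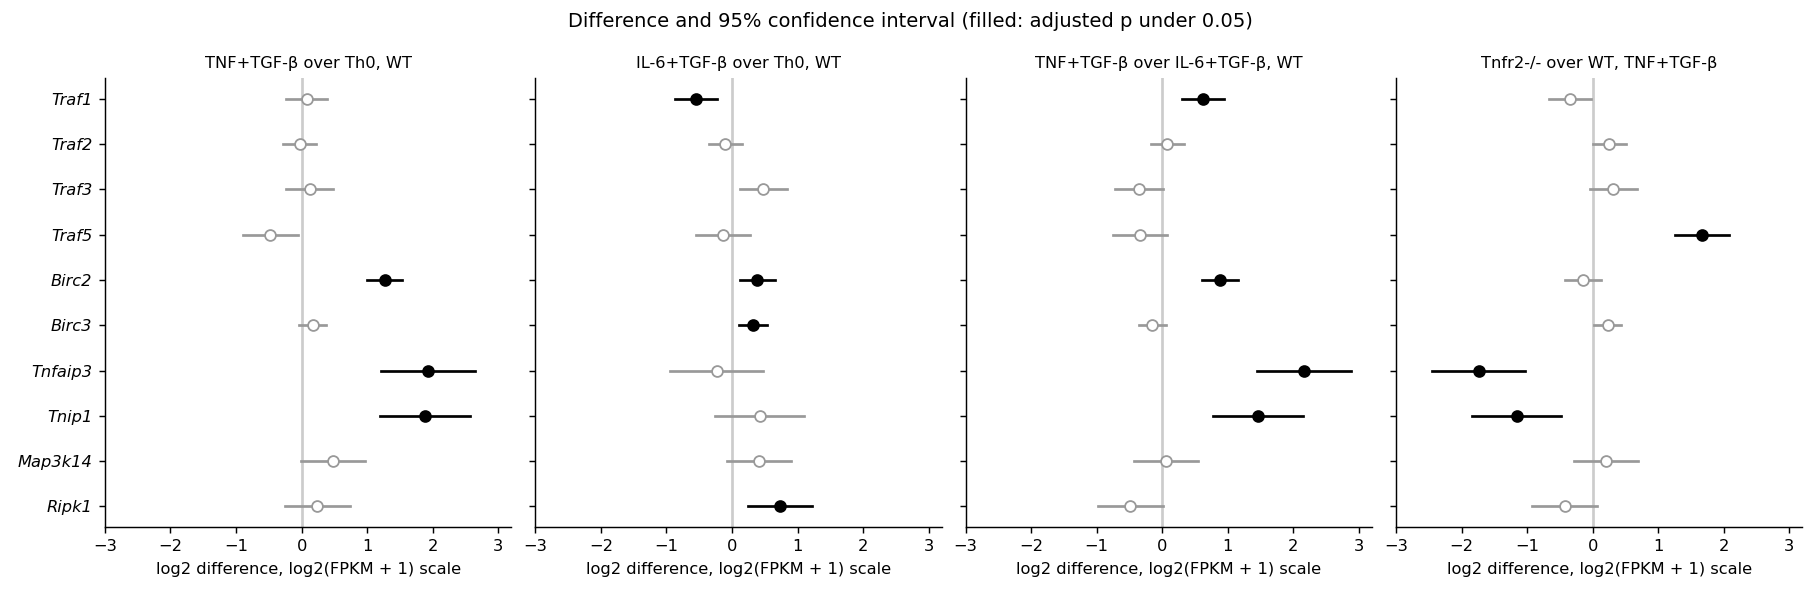
Log2 difference on the log2(FPKM + 1) scale (x axis) with its 95% confidence interval for each of the 10 genes (y axis) in the 4 comparisons, n = 3 libraries per group, filled where the limma adjusted p was under 0.05. Tnfaip3 is at 1.92 and 2.16 in the comparisons of TNF+TGF-β against Th0 and against IL-6+TGF-β, and at -1.74 between the genotypes, where Traf5 is at 1.67.

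Of 47 other genes of the pathway in 5 lists, all tested, 14 were called higher and 3 lower under TNF+TGF-β than under Th0 conditions, and 10 higher and 3 lower under IL-6+TGF-β than under Th0 conditions. Between TNF+TGF-β and IL-6+TGF-β 3 were higher and 4 lower, and between Tnfr2-/- and WT 12 were higher and 9 lower. The called shares of 36.2%, 27.7%, 14.9% and 44.7% are near those of all genes in these comparisons, 31.7%, 23.2%, 12.8% and 37.4%. The genes named are among the largest called changes of each list, except Cyld and the genotype difference of Tnfrsf1a, which were chosen after their values were seen. Among 8 genes of receptors and death domain adaptors, Tnfrsf1b averaged 84.4 FPKM under TNF+TGF-β, 59.6 under IL-6+TGF-β and 19.5 in Th0, and was called higher over Th0 with both pairs (2.04 and 1.51, limma adjusted p = 0.00011 and 0.0011). Tnfrsf1a, the TNF receptor 1 gene, averaged 14.4 FPKM in Tnfr2-/- cells, 27.3 in WT TNF+TGF-β, 22.8 in IL-6+TGF-β and 11.4 in Th0. It was called lower in Tnfr2-/- cells than in WT, at -0.90 (limma adjusted p = 0.0036), so the 2 receptor genes were both lower in those libraries. The death effector gene Mlkl was lower there too, at 0.71 against 3.65 FPKM (-1.48, limma adjusted p = 0.0018).

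Among 12 other TRAF and IAP genes, 4 were called higher under TNF+TGF-β than under Th0 conditions and 0 lower (8 not called), where 18.7% of all genes were called higher. Traf6, the adaptor of Toll-like and IL-1 receptors, averaged 20.6 FPKM under TNF+TGF-β and 8.0 in Th0 (1.27, limma adjusted p = 0.0026), and 23.4 under IL-6+TGF-β (1.40 over Th0, adjusted p = 0.0016). Traf4 was higher under IL-6+TGF-β than under Th0 conditions, at 68.1 against 31.5 FPKM (1.09, limma adjusted p = 0.00011), and lower under TNF+TGF-β, at 47.6 FPKM, than under IL-6+TGF-β (-0.52, adjusted p = 0.0266). Tank, whose protein binds TRAFs, averaged 84.8 FPKM under TNF+TGF-β, against 36.6 under IL-6+TGF-β and 40.6 in Th0, and was called higher than in either (1.18 and 1.03, limma adjusted p = 0.00041 and 0.00064). In Tnfr2-/- cells against WT, Tifa was higher at 11.2 against 1.82 FPKM (2.02, limma adjusted p = 0.0008), and Birc5, the survivin gene of dividing cells, was lower at 85.9 against 265 FPKM (-1.61, adjusted p = 5.39e-05).

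Among 5 genes of A20 partners, Rnf11 averaged 31.9 FPKM with either cytokine pair and 10.3 in Th0 (1.55 over Th0 in both, limma adjusted p = 4.99e-06 and 5.34e-06). Itch, a ubiquitin ligase that works with A20, averaged 16.8 FPKM under TNF+TGF-β and 9.01 in Th0 (0.84, limma adjusted p = 0.0139). Tnip2, the ABIN-2 gene, averaged 20.3 FPKM under TNF+TGF-β, 54.6 under IL-6+TGF-β and 24.4 in Th0, and was lower under TNF+TGF-β than under IL-6+TGF-β, at -1.38 (limma adjusted p = 7.76e-06), the opposite direction to Tnip1. Tnip3, the ABIN-3 gene, was low, at 0.643 FPKM in Tnfr2-/- cells, 1.43 in WT TNF+TGF-β and 0.183 under IL-6+TGF-β, and was called lower in Tnfr2-/- cells than in WT (-0.55, limma adjusted p = 0.0261). Tnip3 passed the filter only through WT TNF+TGF-β (1.11 to 1.94 FPKM), so its calls are no separate support. Tax1bp1, an A20 adaptor and autophagy receptor, averaged 154 FPKM in Tnfr2-/- cells and 101 in WT (0.62, limma adjusted p = 0.00098). Among 9 linear ubiquitin and deubiquitinase genes none was called higher with either cytokine pair over Th0. Of all genes, 18.7% were with TNF+TGF-β and 14.1% with IL-6+TGF-β, and with so few genes none is near these shares. Usp18, an interferon-induced gene, was lower with both pairs (-1.77 and -1.78, limma adjusted p = 0.00043 and 0.00046). In Tnfr2-/- cells Usp18 was higher than in WT, at 9.81 against 2.28 FPKM (1.63, limma adjusted p = 0.00068). Cyld, a deubiquitinase that also restrains NF-κB, was called in none of the 4 comparisons. Otulin averaged 96.0 FPKM under TNF+TGF-β and 153 under IL-6+TGF-β, a called difference of -0.64 (limma adjusted p = 0.0313). Sharpin, a subunit of the linear ubiquitin ligase, was higher in Tnfr2-/- cells than in WT, at 76.9 against 42.7 FPKM (0.83, limma adjusted p = 0.0004). Among 13 TAK1 and IKK kinase genes, Ikbke had the same calls as Tnfaip3 and Tnip1. It averaged 31.3 FPKM in Tnfr2-/- cells, 73.1 in WT TNF+TGF-β, 19.7 in IL-6+TGF-β and 21.1 in Th0. It was called higher under TNF+TGF-β than under Th0 conditions (1.73, limma adjusted p = 7.64e-05) and than under IL-6+TGF-β (1.84, adjusted p = 8.29e-05), and lower in Tnfr2-/- cells than in WT (-1.21, adjusted p = 0.00092). Map3k7, the TAK1 gene, was the kinase called for IL-6+TGF-β over Th0, at 46.8 against 30.6 FPKM (0.59, limma adjusted p = 0.0332). Map3k5, the ASK1 gene, ran the other way, at 14 FPKM in Tnfr2-/- cells, 6.56 in WT TNF+TGF-β, 14.2 in IL-6+TGF-β and 11.8 in Th0, and was called in the same 3 comparisons (0.99, -0.97 and -0.76, limma adjusted p = 0.0015, 0.0036 and 0.0087 for genotype, IL-6+TGF-β and Th0).

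Likeness of pattern was measured by Pearson correlation of log2(FPKM + 1) over the 12 libraries, which share 4 groups and differ in cell markers. It is a description, and the 4156 genes searched were tested, named genes whose group means spanned at least 1 on the log2 scale. The genes most like Tnfaip3 were Nlrx1 (r = 0.986), Abcc1 (0.974) and Zmiz1 (0.971). Zmiz1 averaged 9.56 FPKM in Tnfr2-/- cells, 26.5 in WT TNF+TGF-β, 9.37 in IL-6+TGF-β and 10.5 in Th0. The genes most like Traf1 were Angptl4 (0.935), Hivep3 (0.931) and Cd274 (0.921), the PD-L1 gene. Cd274 averaged 4.78 FPKM in Tnfr2-/- cells, 15.5 in WT TNF+TGF-β, 3.19 in IL-6+TGF-β and 10.5 in Th0. The genes most like Birc3 were Lamp2 (0.964), B4galt7 (0.955) and Rhoq (0.947). Lamp2, a lysosomal membrane gene, averaged 62.5 FPKM in Tnfr2-/- cells, 39.7 in WT TNF+TGF-β, 54.1 in IL-6+TGF-β and 24.1 in Th0.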

How the data were processed

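Bulk RNA-seq of 12 libraries was used, prepared per the labels' protocols by SMARTer cDNA synthesis and Nextera XT, which does not mark strand. The submitters' processing notes name Trimmomatic, STAR 2.5.4, RSEM 1.3.1 and the mm10 genome. The authors deposited 1 value per gene and library, read here as FPKM because the sums differ between libraries (689045 to 828161); the file header does not name the RSEM quantity. One Tnfr2-/- column is numbered 4 where the labels end at 3, and was tied to its group only. Genes at 1 FPKM or more in at least 3 libraries (13082) were fitted as log2(FPKM + 1) by limma 3.58.1 (R 4.3.3). The 12 libraries entered 1 fit of group means, with a trended variance prior. P-values were adjusted by Benjamini-Hochberg over all tested genes per comparison, with a call at 0.05. Ratios between members were compared by exact permutation in Python 3.11.15 with scipy 1.17.1. Coordinates came from GENCODE M21 (99.1% of identifiers matched) and promoters from RefSeq. Depth is approximate, read from the spacing of low FPKM values (76.5% to 87.7% lay within 0.2 of a whole multiple), and floors cover counting error only. The fit was tested on simulated data for TNF+TGF-β over Th0, with 200 genes changed, fewer than the 4145 called in the real data. It called 62.9% of changes of 1 log2 unit and 92.2% of changes of 2, so smaller changes can be missed.

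Members, lists and tests were chosen with earlier results of these data known. Named are all members, up to 2 called genes with the largest change per pathway list and comparison, and up to 5 genes most like Traf1, Birc3 and Tnfaip3; Cyld and Tnfrsf1a between genotypes were named after their values were seen. Alternatives were other pseudocounts, filters, scalings, variance priors, the replicate block and each library left out; the scales relative to Cd4 and to T cell markers were added after seeing the data.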

Additional observations from a re-analysis of the deposited data

How the results depend on the processing

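Between IL-6+TGF-β and Th0, 4 members were called; the count was 2 with median-ratio scaling, 2 with upper-quartile scaling, 2 with a constant variance prior and 1 with only the 2 groups compared, and ran from 0 to 7 with 1 library left out. The cause was not tested, except that leaving out a library or a group leaves fewer samples. The member counts of the other 3 comparisons stayed within 1.5 times. Values of uncalled members that changed sign under a scaling were Traf2 at 0.15 and 0.0055 under TPM in TNF+TGF-β and in IL-6+TGF-β over Th0, and Traf1 at -0.027 with median-ratio scaling in TNF+TGF-β over Th0. With 1 library left out, TNF+TGF-β over Th0 ran from -0.085 to 0.041 for Traf2 and from -0.014 to 0.20 for Traf3, IL-6+TGF-β over Th0 from -0.50 to 0.082 for Tnfaip3 (0.029 without replicate 2 of Th0), and TNF+TGF-β over IL-6+TGF-β from -0.17 to 0.23 for Map3k14 (-0.11 without replicate 2 of TNF+TGF-β). With 1 library left out, the log2 ratio of Tnfaip3 over Tnip1 between TNF+TGF-β and Th0 ran from -0.048 to 0.14, including -0.0045. Map3k14 over Traf3 ran from -0.26 to 0.10 between IL-6+TGF-β and Th0 (above 0 at 0.10, 0.05 and 0.0086) and from -0.28 to 0.13 between the genotypes (above 0 at 0.08 and 0.13). Relative to Cd4, Traf1 turned to 0.80 in IL-6+TGF-β over Th0 and -1.56 in TNF+TGF-β over IL-6+TGF-β, Birc2 to -1.30 in TNF+TGF-β over IL-6+TGF-β, Tnfaip3 to -0.023 there and 0.33 between the genotypes, and Tnip1 to -0.72 and 0.91.

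Calls moved by scaling were Birc3 in TNF+TGF-β over Th0 (higher under TPM, limma adjusted p = 0.0277), Traf5 there (lower with median-ratio scaling, 0.0472), Traf1 between the genotypes (lower under TPM, 0.0428, and median-ratio scaling, 0.0315), and Traf1 and Traf3 in IL-6+TGF-β over Th0 under TPM (0.0751, lost, and 0.0422, gained). TPM moved the median of all genes to 0.22 between TNF+TGF-β and Th0 and to -0.10 between the genotypes. The share of calls that were higher was 58.9% between TNF+TGF-β and Th0 (72.6% under TPM, 48.0% with median-ratio scaling) and 53.2% between the genotypes (42.7% under TPM). The correlation of deviations from group means was computed between libraries of different groups, and for same-numbered libraries it varied in sign. For numbers 1, 2 and 3, r was 0.29, 0.34 and 0.05 for Th0 with IL-6+TGF-β. It was 0.04, 0.13 and 0.09 for Th0 with WT TNF+TGF-β, and 0.11, 0.20 and -0.03 for IL-6+TGF-β with WT TNF+TGF-β. For numbers 1 and 2, Tnfr2-/- gave -0.18 and -0.06 with Th0, and -0.28 and -0.13 with IL-6+TGF-β. With WT TNF+TGF-β it gave 0.08 and 0.01. Differently numbered libraries ran from -0.34 (Th0 number 2 with IL-6+TGF-β number 1) to 0.29 (IL-6+TGF-β number 2 with Tnfr2-/- number 1). Whether the numbers pair the WT libraries was therefore not settled. With the replicate block 3 members were called for TNF+TGF-β over Th0 and 3 for IL-6+TGF-β over Th0 (Birc2 was lost, limma adjusted p = 0.066). The block gave 4 for TNF+TGF-β over IL-6+TGF-β and 3 between the genotypes. Between the genotypes it gave 3253 genes in all, against 4898 without it.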
